A study of Sus scrofa with 6 samples.

Results

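The translation initiation and elongation factors were examined as a family of 43 genes in the left ventricular (LV) free wall of piglets injected with doxorubicin (Dox) or with phosphate-buffered saline (PBS). A gene was a member when its probe set carries a single gene symbol that begins with EIF1 to EIF6, with EEF1 or EEF2, or with PABPC and a digit, or is ETF1 or GSPT1, and EIF1AY was left out. The family makes up 43 of the 6765 genes that have a probe set with 1 symbol on the array. Its rule picks genes by symbol alone, but the rule was chosen with earlier results of these data known. Each gene was read at its probe set with the highest mean log2 signal over the 6 arrays, and 16 members had more than 1 probe set, giving 66 probe sets in all. The elongation factor EEF2, the initiation factor EIF5 and the termination factors ETF1 and GSPT1 are not analysed here.

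Initiation of translation brings the initiator tRNA, the small ribosomal subunit and the mRNA together. The GTP-binding factor eIF2 delivers the initiator tRNA and is recharged by the exchange factor eIF2B, the large complex eIF3 holds the small subunit and the mRNA, and the eIF4 factors bind the cap of the mRNA and unwind its leader. During elongation eEF1A brings each aminoacyl-tRNA to the ribosome and is recharged by the eEF1B subunits, while the poly(A)-binding proteins join the tail of the mRNA to the cap complex. In heart muscle the growth of cells rests largely on protein synthesis, and the mRNAs of several of these factors carry a terminal oligopyrimidine (TOP) tract, the element through which mTORC1 controls the translation of the ribosomal protein mRNAs.

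Dox, an anthracycline used against tumours, damages heart muscle. In the Dox-injected group 3 Large White piglets were given 2.0 mg/kg intravenously, once, when they were 8 days old, and in the PBS-injected group 3 piglets of the same breed and age received PBS instead. LV free wall was taken 3 weeks later, at 28 days of age, and total RNA of each piglet was hybridized to its own Affymetrix Porcine Genome Array. The methods of the study give a somewhat different schedule from the sample labels, which are followed here. The labels name no transgene or deletion in either group.

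Each value is a MAS5 signal, the linear intensity of a probe set, and the authors scaled every array to a trimmed mean of 100. As a measure of background, the Tag probe sets, whose synthetic sequences match no pig gene, reached at most 2.5 to 6.3 on an array, and all 43 members exceeded the highest Tag signal on every array. After this scaling the median signal was 13.5 to 15.6 on the Dox arrays and 16.8 to 17.8 on the PBS arrays, and the 99th percentile was 2945 to 3636 on the Dox arrays and 2549 to 2912 on the PBS arrays. The hybridization spike-ins, which are added in equal amount to every sample, had a geometric mean signal of 784 to 1100 on the Dox arrays and 617 to 676 on the PBS arrays. Cardiomyocyte markers were present as the tissue label states (13 of 15 markers with a probe set, none at 0), with a summed signal of 62608 to 86739 on the Dox arrays and 45964 to 58022 on the PBS arrays. That sum includes the natriuretic peptide genes NPPA and NPPB, with log2 differences of 2.14 and 3.67, and a sum without them was not computed. Of the 13 markers 11 lay above 0, and RYR2 and CASQ2 lay below it (log2 differences -0.29 and -0.20). The fibroblast markers (7 of 9, none at 0) had a summed signal of 1074 to 2364 on the Dox arrays and 2561 to 3535 on the PBS arrays, and the leukocyte markers (8 of 13, none at 0) 443 to 1260 on the Dox arrays and 311 to 418 on the PBS arrays. Without the neutrophil marker S100A9 the leukocyte sum was 386 to 578 on the Dox arrays and 301 to 410 on the PBS arrays, so that the groups overlapped. AIF1, CD3E and ITGAM had lower geometric means in the Dox group, and ITGAM was within the Tag range on 4 arrays. The endothelial markers (8 of 9, none at 0) summed to 1232 to 1373 on the Dox arrays and 1451 to 2178 on the PBS arrays. The sums of these 4 full lists and the spike-ins did not overlap between the groups, and their part in the values of the translation factors was not tested. In a bulk sample, fewer cells of a type and less RNA per cell cannot be told apart.

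Most translation factors had slightly higher signals in the Dox group than in the PBS group, and no member passed the threshold for a change. The log2 difference, Dox minus PBS, was above 0 in 35 members and below 0 in 8, so that 81.4% lay above 0, beside 42.9% of all probe sets tested. The median was 0.21 over the members and -0.10 over all 24000 probe sets. Subunits of eIF3, the factor eIF4B and the poly(A)-binding protein PABPC4 lay furthest above 0 among the members whose groups did not overlap, at log2 differences of 0.58 to 0.75. The kinase EIF2AK2 was the member with every Dox signal below every PBS signal.

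A change was called where the fold reached 2 and the adjusted p was no more than 0.05, and limma called 0 of the 43 members and 0 of 24000 probe sets (0%). At an unadjusted p of at most 0.05, 9 members (20.9%) were higher in Dox-injected piglets, beside 3.62% of all probe sets tested, and 0 members were lower, beside 5.92%. Without the intensity trend in the limma fit, 2 members (EIF3E and EIF3L) were higher at that p, beside 2.68% of all probe sets. Every Dox signal lay above every PBS signal in 14 members (32.6%), beside 6.19% of all probe sets, and below in 1 member (2.33%), beside 10.1%. The smallest adjusted p of a member was 0.521 in limma, while the smallest two-sided p that an exact permutation test can reach with 3 piglets in each group is 0.1. The family sits high on the signal scale of the array, where more probe sets lay above 0. Among the 1462 probe sets with a geometric mean signal above 533, that of the median member, 62.5% lay above 0, the median log2 difference was 0.10, and 23.7% had every Dox signal above every PBS signal, against 6.36% below. Of these bright probe sets 13.6% were higher at an unadjusted p of at most 0.05 in limma and 4.17% lower. The 22 members from the median member upwards had 10 genes (45.5%) with every Dox signal above every PBS signal, and the 21 members under it had 4 (19.0%).

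**Figure D1:**
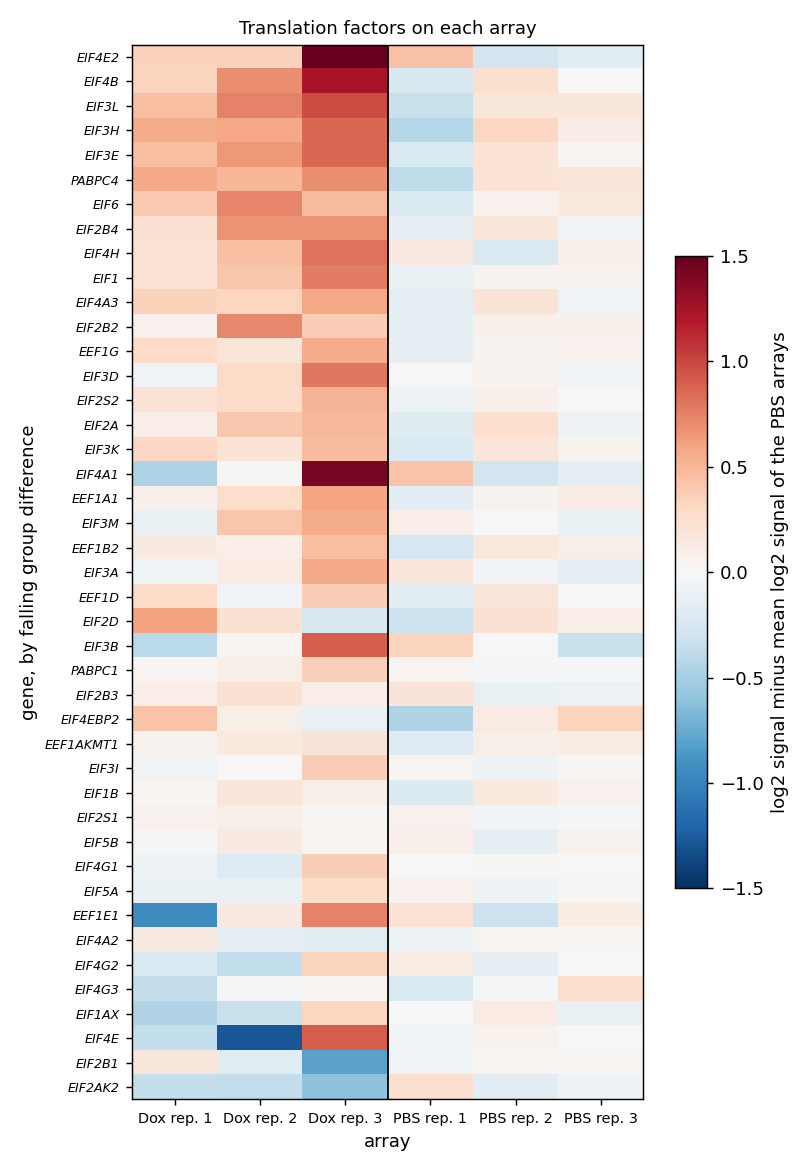
Log2 signal of the 43 translation factor genes (rows, ordered by the group difference) on each of the 6 arrays (columns), as the difference from the mean log2 signal of the 3 PBS arrays, with red for higher and blue for lower. The column of Dox replicate 3 holds most of the deep red cells, and its median over the members is 0.48, against 0.10 for Dox replicate 1 and 0.18 for Dox replicate 2.

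The height of the signals differed among the Dox arrays. Dox replicate 3 had the highest signal of the 6 arrays in 30 of 43 members (69.8%), beside 24.3% of all probe sets tested and 43.6% of the 1462 bright ones. PBS replicate 1 had the lowest in 21 members (48.8%), beside 16.2% of all probe sets and 41.9% of the bright ones. The median deviation of the members from the PBS mean was 0.10, 0.18 and 0.48 log2 units in Dox replicates 1, 2 and 3, and -0.08, 0.05 and 0.03 in PBS replicates 1, 2 and 3. Without Dox replicate 3 the median log2 difference of the members was 0.12, and without Dox replicate 1 it was 0.34. Without PBS replicate 1 only 4 members were higher at an unadjusted p of at most 0.05, namely EIF3E, EIF3H, EIF3L and PABPC4, beside 2.01% of all probe sets. These same 4 genes were higher at that p in each of the 6 fits that left out 1 array. The spread within the Dox group was the larger in 26 members (60.5%), beside 64.3% of all probe sets.

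The measured subunits of eIF3 lay above 0 as deposited. All 9 (EIF3A, EIF3B, EIF3D, EIF3E, EIF3H, EIF3I, EIF3K, EIF3L and EIF3M) had a positive log2 difference, with a median of 0.33, and all 9 lay above 0 under quantile and cyclic loess normalization too, with medians of 0.31 and 0.35. Without Dox replicate 3, however, EIF3B was at -0.18 and EIF3I at -0.025, and EIF3D was at -0.80 at a second, dim probe set and at -0.23 with its probe sets averaged. In limma 3 of the 9 were higher at an unadjusted p of at most 0.05, and in 4 of the 9 every Dox signal lay above every PBS signal. EIF3E, a subunit that contacts the cap-binding complex, had signals of 2521, 2879 and 3334 in the 3 Dox-injected piglets, against 1569.8, 2117 and 1873 in the 3 PBS-injected piglets. The groups did not overlap, and the lowest Dox signal was that of replicate 1. The log2 difference of EIF3E was 0.65 with a standard error of 0.18, a 1.57-fold ratio of geometric means (adjusted p = 0.521 from limma), and it ranged between 0.54 and 0.75 when 1 array was left out.

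EIF3H, a regulatory subunit of the same complex, had signals of 3682, 3741 and 4563 in Dox-injected piglets, against 1867, 3109 and 2713 in PBS-injected piglets. PBS replicate 1 was the lowest by a wide margin, and every Dox signal lay above the PBS signals. Its log2 difference was 0.67 (standard error 0.21, adjusted p = 0.521 from limma) and 0.45 without PBS replicate 1. EIF3L, which binds the complex beside EIF3K at its edge, had signals of 968.5, 1189 and 1401 in Dox-injected piglets, against 562, 796 and 799 in PBS-injected piglets. These groups were apart as well, with PBS replicate 1 again the lowest, and the log2 difference was 0.72 (standard error 0.21, adjusted p = 0.521 from limma), 0.56 without PBS replicate 1. EIF3K had signals of 2365, 2196 and 2611 in Dox-injected piglets, against 1617, 2162 and 1965 in PBS-injected piglets, and is given because its groups did not overlap, a choice made after the values were seen. The gap for EIF3K was narrow, between Dox replicate 2 and PBS replicate 2, and its log2 difference of 0.33 became 0.16 after quantile normalization. The scaffold subunits EIF3A and EIF3B had log2 differences of 0.21 and 0.18 with overlapping groups, and EIF3D, EIF3I and EIF3M lay between 0.11 and 0.34.

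**Figure D2:**
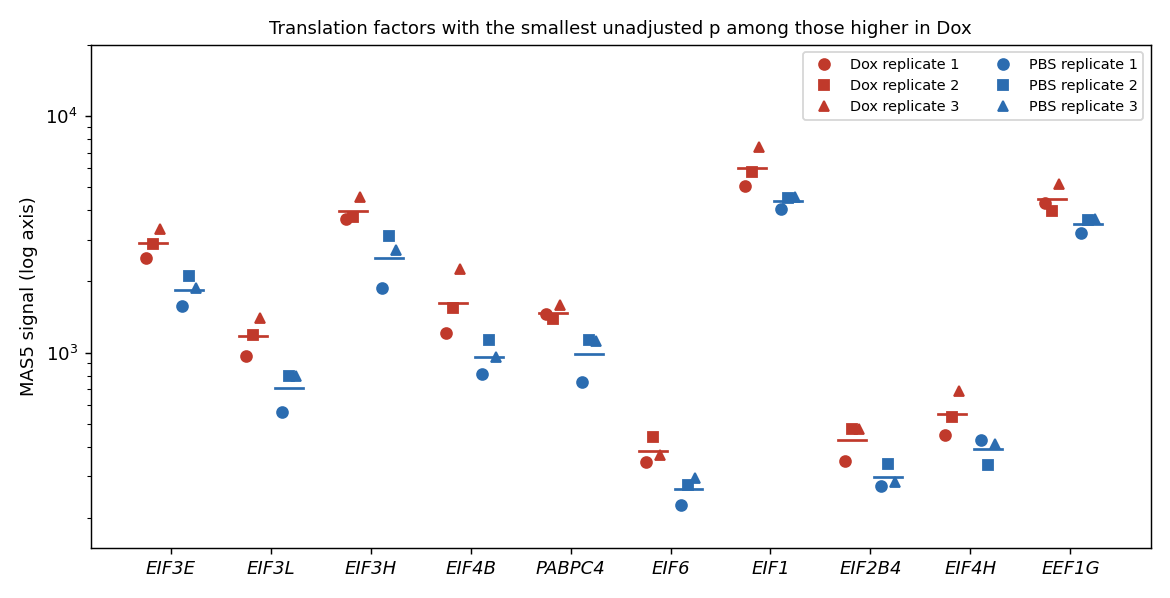
MAS5 signal (log axis) of the 10 translation factor genes with the smallest unadjusted p among those higher in Dox-injected piglets. Points are single arrays with a marker for each replicate number, red for Dox and blue for PBS, and bars are the geometric means of 3 arrays. In all 10 genes the lowest Dox signal lies above the highest PBS signal.

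The eIF4 factors, which bind the cap and unwind the leader of the mRNA, were split, with 6 of 10 above 0 and a median log2 difference of 0.18 (0.16 after quantile and 0.22 after cyclic loess normalization). At an unadjusted p of at most 0.05 in limma 2 of the 10 were higher, EIF4B and EIF4H, which both stimulate the helicase eIF4A. EIF4B had signals of 1208, 1549 and 2261 in Dox-injected piglets, against 809, 1133 and 961 in PBS-injected piglets. Dox replicate 3 was the highest and the groups did not overlap. Its log2 difference was 0.75 (standard error 0.25, adjusted p = 0.521 from limma), between 0.51 and 0.97 when 1 array was left out, and 0.56 at a second probe set whose groups overlapped. EIF4H had signals of 451, 535 and 687 in Dox-injected piglets, against 429, 337 and 410.5 in PBS-injected piglets. The gap lay between Dox replicate 1 and PBS replicate 1, the log2 difference was 0.49 (standard error 0.21, adjusted p = 0.521 from limma), and with a further, dimmer probe set of the gene averaged in it was 0.13. EIF4H was past an unadjusted p of 0.05 in only 1 of the 6 fits that left out an array, the one without Dox replicate 1, and EIF4B in all but the fit without PBS replicate 1.

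The cap-binding protein itself, EIF4E, had signals of 76.3, 40.1 and 184 in Dox-injected piglets, against 94.5, 101 and 97.8 in PBS-injected piglets. Dox replicates 1 and 2 lay below the narrow PBS range and Dox replicate 3 above it. The log2 difference was -0.24 (standard error 0.48, adjusted p = 0.878 from limma), and -0.82 without Dox replicate 3. EIF4E2, a cap-binding relative of EIF4E that represses translation, had the largest log2 difference among the probe sets that represent the family, 0.91, on signals of 51.0, 50.9 and 165 in Dox-injected piglets, against 54.3, 33.3 and 35.9 in PBS-injected piglets. Only Dox replicate 3 was clear of the PBS range, and without it the log2 difference of EIF4E2 was 0.34. At its 2 further probe sets it was 0.52 and -0.35, and 0.36 with the probe sets averaged. The helicase EIF4A1 had 311, 432.5 and 1144 in Dox-injected piglets, against 574, 349 and 389 in PBS-injected piglets. Dox replicate 3 lay above the PBS range of EIF4A1 and Dox replicate 1 below it, and its log2 difference of 0.33 became -0.22 without Dox replicate 3. EIF4A3, a related helicase of the exon junction complex, had 396, 390.4 and 465 in Dox-injected piglets, against 284, 359 and 299 in PBS-injected piglets, groups that did not overlap at a log2 difference of 0.41. The values of EIF4E2, EIF4A1 and EIF4A3 are given in full by a choice made after they were seen.

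Among the scaffold proteins, EIF4G1 had a log2 difference of 0.034. EIF4G2, a relative of eIF4G that lacks the part that binds EIF4E, had signals of 2434, 2221 and 3607 in Dox-injected piglets, against 3098, 2629.5 and 2871 in PBS-injected piglets. Dox replicates 1 and 2 were the lowest of the 6 arrays and Dox replicate 3 the highest, with a log2 difference of -0.087 (standard error 0.20). EIF4G3 had signals of 257, 322 and 335 in Dox-injected piglets, against 281, 325 and 389.9 in PBS-injected piglets, with wide overlap and a log2 difference of -0.12. The helicase EIF4A2 had 2070.1, 1723 and 1687.5 in Dox-injected piglets, against 1789.5, 1953 and 1935 in PBS-injected piglets, and its difference of -0.056 was smaller than the spread among the Dox signals. EIF4EBP2, which competes with eIF4G for EIF4E, had signals of 1772, 1401 and 1216 in Dox-injected piglets, against 961, 1433.5 and 1661 in PBS-injected piglets. The groups overlapped widely (log2 difference 0.13, standard error 0.24), and its 4 further probe sets, all dimmer, had log2 differences of -0.089, 0.23, 0.49 and 0.46. The groups overlapped at the first of these, and at the others every Dox signal lay above every PBS signal.

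**Figure D3:**
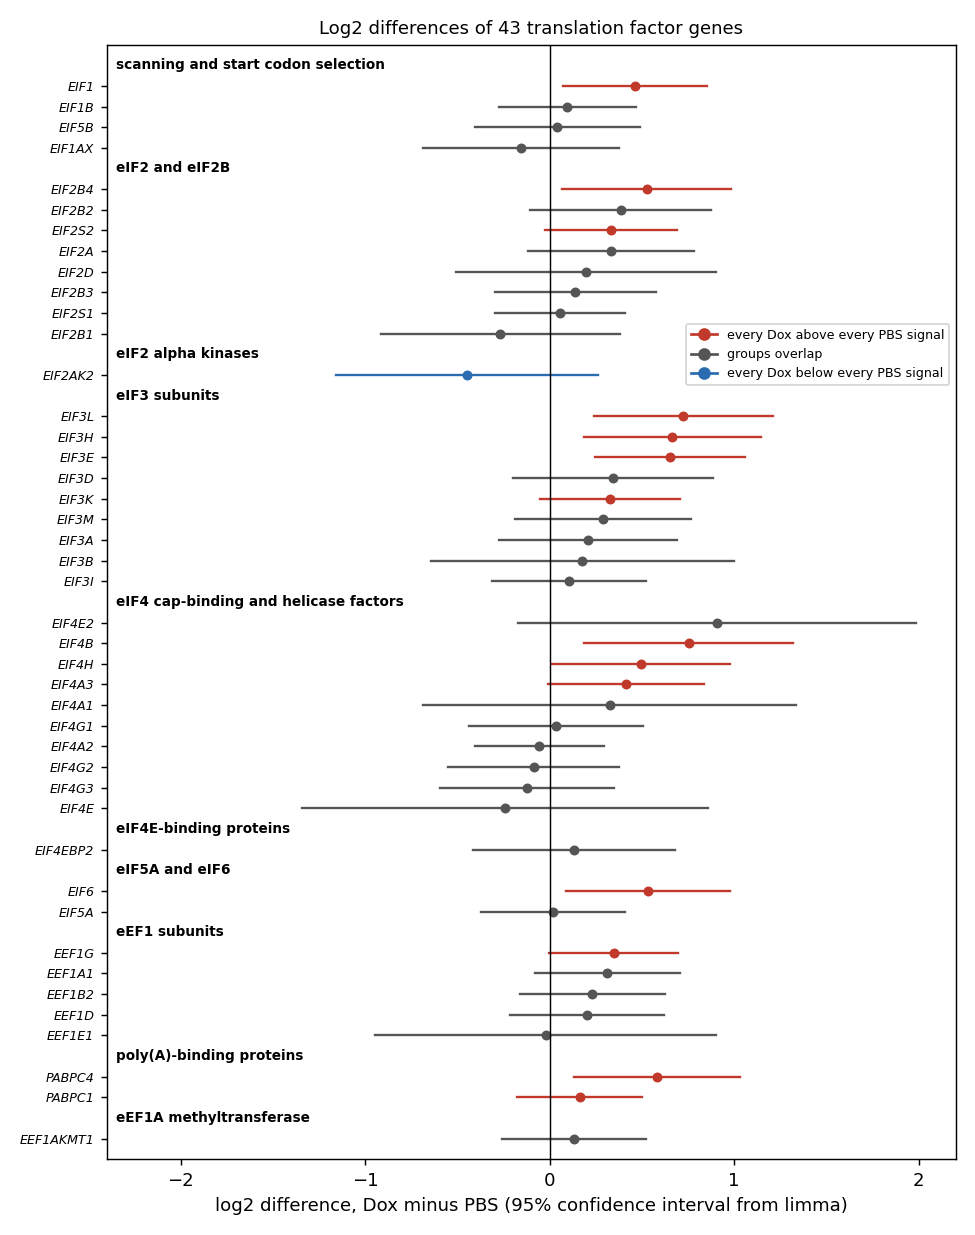
Log2 difference, Dox minus PBS, of each of the 43 translation factor genes (horizontal axis) with its 95% confidence interval from limma, grouped by role. Red marks the 14 genes with every Dox signal above every PBS signal, blue the gene with every Dox signal below, and grey the genes whose groups overlap. All 9 eIF3 subunits lie above 0 as deposited, while 4 of the 10 eIF4 factors lie below.

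The genes grouped under eIF2 and eIF2B, with EIF2A and EIF2D counted among them, lay mostly above 0. Of these 8 genes 7 were positive, and the median log2 difference was 0.27 (0.26 after quantile and 0.29 after cyclic loess normalization). EIF2B4, a subunit of the exchange factor, was the one that was higher at an unadjusted p of at most 0.05 in limma, with signals of 348, 477 and 474 in Dox-injected piglets, against 274, 337 and 285 in PBS-injected piglets. Dox replicate 1 stood closest to the PBS range, and the groups did not overlap (0.53 on the log2 scale, standard error 0.20, adjusted p = 0.521 from limma). EIF2B4 was past that p without Dox replicate 1 and without PBS replicate 2, and not in the other 4 fits that left out an array. EIF2S2, the beta subunit of eIF2, had signals of 1309.7, 1369 and 1609.8 in Dox-injected piglets, against 1074, 1194 and 1127 in PBS-injected piglets. Its groups were apart too, and the log2 difference in limma was 0.33 (standard error 0.16, adjusted p = 0.536), and it was 0.19 after quantile normalization. The alpha subunit EIF2S1, the site of regulation by phosphorylation, had a log2 difference of 0.055.

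The other exchange factor subunits lay on both sides of 0. EIF2B2 and EIF2B3 had log2 differences of 0.39 and 0.14, and EIF2B1 had signals of 110.3, 86.9 and 56.1 in Dox-injected piglets, against 93.3, 100.1 and 100.3 in PBS-injected piglets. Dox replicate 3 was far below and Dox replicate 1 above the PBS range of EIF2B1, with a log2 difference of -0.27 (standard error 0.28). EIF2A and EIF2D, which are not subunits of eIF2 but can deliver initiator tRNA in other ways, had log2 differences of 0.33 and 0.20 with overlapping groups. EIF2AK2, the RNA-activated kinase (PKR) that phosphorylates EIF2S1, had signals of 18.2, 18.1 and 15.2 in Dox-injected piglets, against 27.6, 20.7 and 22.2 in PBS-injected piglets. All 3 Dox signals lay below the PBS signals, with -0.45 on the log2 scale in limma (standard error 0.31, adjusted p = 0.634), and -0.21 after quantile normalization. The other eIF2 alpha kinases are not analysed here.

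Of the factors for scanning and start codon selection, EIF1 stood above the rest. EIF1, which keeps the scanning ribosome open until the start codon is reached, had signals of 5058, 5819 and 7416 in Dox-injected piglets, against 4059, 4515 and 4537 in PBS-injected piglets. The lowest Dox signal exceeded the highest PBS signal, and the same was true at its second probe set, where the log2 difference was 0.56. At the main probe set it was 0.46 (standard error 0.17, adjusted p = 0.521 from limma), but 0.16 after quantile and 0.21 after cyclic loess normalization, where its unadjusted p was no longer at most 0.05, nor was it without Dox replicate 3 (log2 difference 0.31) or without any 1 of the PBS arrays. EIF1AX, the partner of EIF1 on the small subunit, had signals of 368, 398 and 630.1 in Dox-injected piglets, against 499.9, 546 and 466 in PBS-injected piglets. Dox replicate 3 was the highest of the 6 arrays and the other Dox replicates the lowest, with a log2 difference of -0.15 (standard error 0.23) and -0.46 at a second probe set. EIF1B, a close paralog of EIF1, and EIF5B, the GTPase of subunit joining, had log2 differences of 0.096 and 0.042. The median of these 4 genes was 0.07 (0.06 after quantile and 0.09 after cyclic loess normalization).

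The genes grouped under eEF1, with EEF1E1 counted among them, lay moderately above 0 in 4 of 5 cases. Their median log2 difference was 0.23 (0.08 after quantile and 0.12 after cyclic loess normalization), and none had an unadjusted p of at most 0.05 in limma. EEF1G, the structural subunit of the exchange complex, had signals of 4279, 3972 and 5138 in Dox-injected piglets, against 3211, 3622 and 3655 in PBS-injected piglets. Its groups did not overlap, and the log2 difference was 0.35 (standard error 0.15, adjusted p = 0.524 from limma), but 0.090 after quantile normalization. EEF1B2 and EEF1D, which carry the exchange activity, had log2 differences of 0.23 and 0.20, and EEF1B2 was at -0.038 after quantile normalization. EEF1E1, a small relative that sits in the complex of tRNA synthetases, had signals of 63.6, 134 and 205 in Dox-injected piglets, against 141, 97.4 and 132 in PBS-injected piglets. Dox replicates 1 and 3 marked the lowest and the highest of the 6 arrays, and the log2 difference was -0.020 (standard error 0.41). EEF1AKMT1, which is no elongation factor but an enzyme that methylates eEF1A, had signals of 537, 575 and 593 in Dox-injected piglets, against 452, 549 and 561 in PBS-injected piglets, and the overlap of the groups was broad (log2 difference 0.13).

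EEF1A1, the elongation factor that carries the aminoacyl-tRNA, was read at an array control, the probe set for the middle of the EF1a transcript, because that was the one the rule selected. Its signals were 4502, 5133 and 6412 in Dox-injected piglets, against 3810.1, 4420.5 and 4601 in PBS-injected piglets. PBS replicate 3 lay just above Dox replicate 1, so the groups overlapped, and the log2 difference was 0.31 (standard error 0.17, adjusted p = 0.574 from limma), or 0.011 after quantile normalization. The control at the 3′ end of the same transcript had 6659, 6105 and 8145 in Dox-injected piglets, against 4845, 5399 and 5659.7 in PBS-injected piglets, without overlap (log2 difference 0.39, exact permutation test, two-sided p = 0.1). The control at the 5′ end had 572, 1429 and 1895 in Dox-injected piglets, against 996.5, 1273 and 1183 in PBS-injected piglets, with the lowest and the highest signal both in the Dox group (log2 difference 0.015). The ratio of the 3′ to the 5′ signal, a sign of RNA quality and of the length of labelled RNA, was 11.6 in Dox replicate 1 and 4.24 to 4.86 on the other 5 arrays, and the same ratio for GAPDH was 1.55 in Dox replicate 1 and 1.16 to 1.28 on the other arrays. The actin ratio did not set this array apart, at 76.9, 29.6 and 32.6 in Dox replicates 1, 2 and 3 and 35.1, 121 and 62.4 in PBS replicates 1, 2 and 3. The part of RNA quality in the values of the other members was not tested. At the 3 other probe sets of EEF1A1, all dimmer, the log2 differences were 0.33, 0.12 and 0.45, each with overlapping groups, and reading the gene at the brightest of them, an alternative chosen after the values were seen, gave the same 9 members at an unadjusted p of at most 0.05.

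**Figure D4:**
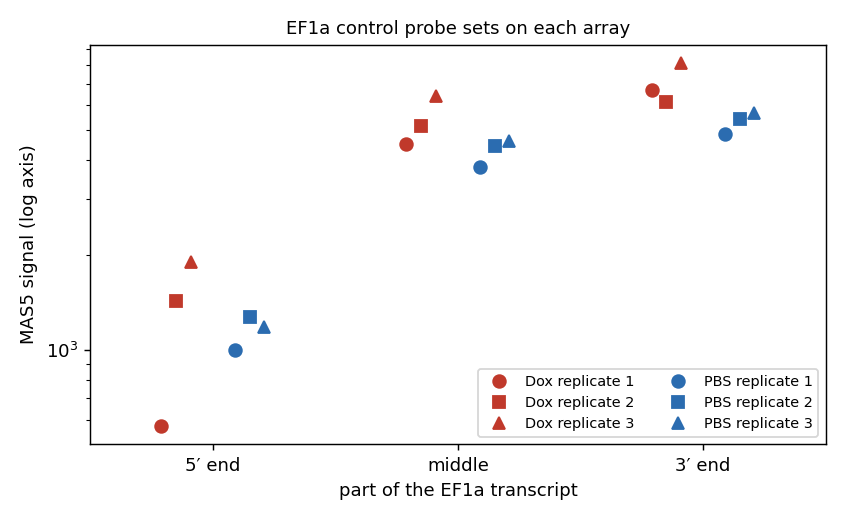
MAS5 signal (log axis) of the 3 array control probe sets along the EF1a transcript (horizontal axis, 5′ end to 3′ end), with red points for Dox and blue points for PBS arrays and a marker for each replicate number. At the 5′ end Dox replicate 1 lies lowest, at 572, and at the 3′ end all 3 Dox signals lie above the PBS signals.

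The poly(A)-binding proteins PABPC1 and PABPC4, which coat the tail of the mRNA, both had every Dox signal above every PBS signal as deposited. PABPC4 had signals of 1458, 1385 and 1592 in Dox-injected piglets, against 754, 1132 and 1119 in PBS-injected piglets. The 3 Dox signals lay close together and PBS replicate 1 was low, and the log2 difference was 0.58 (standard error 0.20, adjusted p = 0.521 from limma), 0.39 without PBS replicate 1 and 0.46 after quantile normalization. PABPC1, the general form, had signals of 2497, 2573.5 and 3096 in Dox-injected piglets, against 2480.2, 2399 and 2379 in PBS-injected piglets. Dox replicate 1 exceeded PBS replicate 1 by a small margin, and the log2 difference of 0.16 turned to -0.041 after quantile and -0.013 after cyclic loess normalization.

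EIF6, which holds the large ribosomal subunit apart from the small one until it is released, had signals of 347, 439.5 and 368 in Dox-injected piglets, against 227, 277 and 294 in PBS-injected piglets. The groups did not overlap, and Dox replicate 2 was the highest. Its log2 difference was 0.53 (standard error 0.20, adjusted p = 0.521 from limma) and 0.57 after quantile normalization, and its unadjusted p was above 0.05 without Dox replicate 2, PBS replicate 1 or PBS replicate 2. EIF5A, the hypusine-bearing factor that helps the ribosome through difficult stretches, had signals of 861, 851 and 1114 in Dox-injected piglets, against 965, 871.5 and 932 in PBS-injected piglets. Dox replicates 1 and 2 were the lowest and Dox replicate 3 the highest, at a log2 difference of 0.020 (standard error 0.17), and -0.10 after quantile normalization.

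The size of the differences depended on how the arrays were scaled. Quantile normalization moved the median log2 difference of all probe sets to -0.0039, against -0.10 as deposited, and that of the members to 0.16, against 0.21. With it 32 of 43 members lay above 0 (49.7% of all probe sets did), 12 had every Dox signal above every PBS signal (7.75% of all probe sets, with 7.69% below), and 9 were higher at an unadjusted p of at most 0.05, beside 4.47% of all probe sets higher and 4.53% lower. Of those 9 genes 8 were the same as before, with EIF4A3 in place of EIF1. After cyclic loess normalization 33 members lay above 0 with a median of 0.17, beside 49.9% of all probe sets, and again 9 were higher at that p, beside 4.43%.

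Of 10 TOP mRNA genes listed among the translation factors, 8 had a probe set (EEF1A1, EEF1B2, EEF1D, EEF1G, EIF3E, EIF3H, EIF4B and PABPC1). As deposited all 8 lay above 0, with a median log2 difference of 0.33. Of the 8, 3 (37.5%) were higher at an unadjusted p of at most 0.05, beside 3.62% of all probe sets and 13.6% of the 1462 bright ones. In 5 (62.5%) every Dox signal lay above every PBS signal, beside 6.19% of all probe sets and 23.7% of the bright ones. The other 35 members had a median of 0.18, with 27 above 0, 6 (17.1%) higher at that p and 9 (25.7%) with every Dox signal above. The order of these medians was the reverse after quantile normalization, 0.10 for the TOP genes and 0.16 for the others. Of the TOP genes 6 then lay above 0. After this normalization 3 of the 8 TOP genes and 6 of the 35 others were still higher at that p. The groups did not overlap, with Dox above, in 4 of the 8 TOP genes and 8 of the 35 others. The same was true of 7.75% of all probe sets and 11.1% of the bright ones. The difference between the 2 sets was not tested. The 60 cytosolic ribosomal protein genes, the classical TOP mRNAs, had a median log2 difference of 0.37 as deposited, with 57 above 0. After quantile normalization their median was 0.06 with 52 above 0, and after cyclic loess normalization 0.12 with 57 above 0. The number of these 60 genes higher at an unadjusted p of at most 0.05 was 29 as deposited and 3 after quantile normalization, while that of the translation factors was 9 under both. Of all probe sets 3.62% were higher at that p as deposited and 4.47% after quantile normalization. As deposited every Dox signal lay above every PBS signal in 53 of the 60 ribosomal protein genes (88.3%) and in 14 of the 43 translation factors (32.6%). The numbers were 22 (36.7%) and 12 (27.9%) after quantile normalization, and 36 (60.0%) and 12 (27.9%) after cyclic loess normalization. The share of all probe sets was 6.19% as deposited, 7.75% after quantile and 7.94% after cyclic loess normalization. For the 1462 bright ones it was 23.7%, 11.1% and 13.8%.

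**Figure D5:**
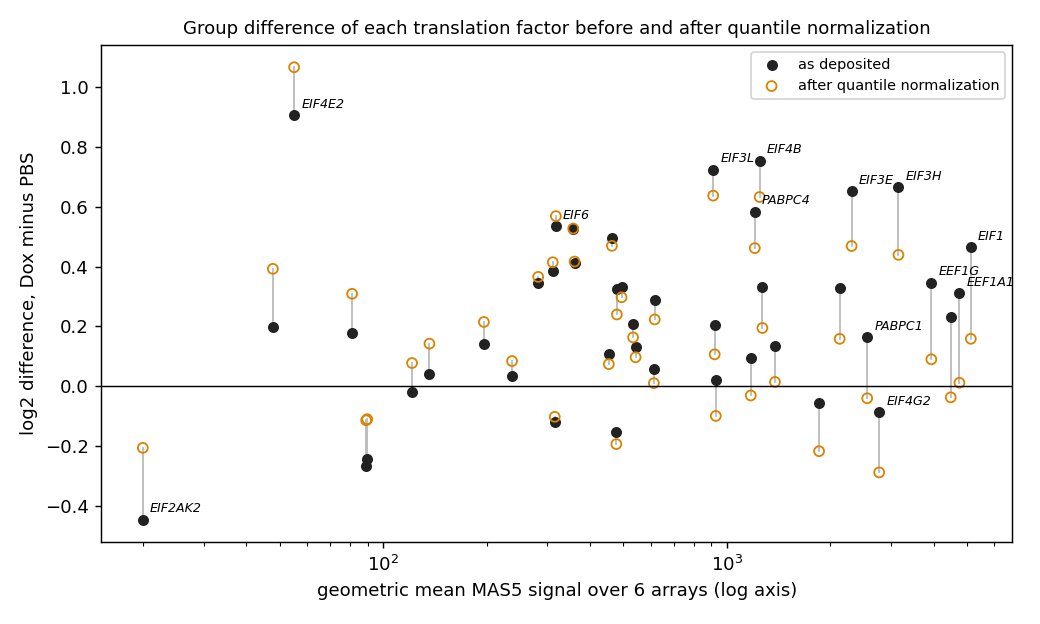
Log2 difference, Dox minus PBS, of each translation factor gene (vertical axis) against its geometric mean MAS5 signal over the 6 arrays (horizontal log axis), as deposited (black) and after quantile normalization (open orange), with a grey line joining the values of a gene. EIF1 and EEF1A1, at the right, lie at 0.16 and 0.011 after quantile normalization, and EIF3L, EIF4B and EIF6 at 0.64, 0.63 and 0.57.

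Genes of the pathways around the translation factors were read from 4 lists, and in each list limma called 0 genes. Beside the counts below, 3.62% of all probe sets tested were higher at an unadjusted p of at most 0.05 and 5.92% lower. The lists are short, and such small counts are not read as results about the pathways. Of the 22 target genes of the integrated stress response, which starts when the alpha subunit of eIF2 is phosphorylated, 15 had a probe set, 9 above and 6 below 0, with a median log2 difference of 0.54, and at an unadjusted p of 0.05 or less 1 gene was higher and 2 lower. The transcription factor ATF3 had signals of 75.4, 1115.5 and 498 in Dox-injected piglets, against 32.6, 168 and 38.1 in PBS-injected piglets, and its groups overlapped (2.55 on the log2 scale, standard error 0.96, adjusted p = 0.521 from limma). ATF4, the transcription factor at the head of the response, is named after its values were seen, with 499, 1189.5 and 1967 in Dox-injected piglets, against 427, 617 and 624 in PBS-injected piglets. Dox replicate 1 lay within the PBS range of ATF4, and the log2 difference was 0.94 (standard error 0.44). The 2 genes that were lower at that p encode enzymes of amino acid synthesis. PSAT1, an enzyme of serine synthesis, had 33.8, 18.9 and 13.0 in Dox-injected piglets, against 101, 41.2 and 94.2 in PBS-injected piglets, and ASNS, asparagine synthetase, had 77.5, 40.7 and 46.5 in Dox-injected piglets, against 114, 119 and 90.9 in PBS-injected piglets. In both genes every Dox signal lay below every PBS signal, with log2 differences of -1.85 and -1.02 (adjusted p = 0.521 for each from limma).

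Of 27 genes of mTORC1 and of cap-dependent control outside the family, 15 had a probe set, 8 above and 7 below 0, with a median log2 difference of 0.01, and at an unadjusted p of 0.05 or less 2 genes were higher and 1 lower. RHEB, the GTPase that activates mTORC1, had signals of 1308.5, 1749.6 and 3002 in Dox-injected piglets, against 1214, 1176 and 1252 in PBS-injected piglets, with Dox replicate 3 far above the rest (log2 difference 0.65, and 0.32 without that array). AKT1S1, an inhibitory subunit of mTORC1, had 459, 591 and 612 in Dox-injected piglets, against 324, 463 and 399.6 in PBS-injected piglets, with overlap by Dox replicate 1 (log2 difference 0.49). For the kinase AKT1 every Dox signal lay below every PBS signal (log2 difference -0.56), at 340, 274 and 301 in Dox-injected piglets, against 563, 412 and 386 in PBS-injected piglets.

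Of the 22 cytosolic aminoacyl-tRNA synthetases and scaffold proteins, which load the tRNAs, 17 had a probe set, 12 above and 5 below 0, with a median log2 difference of 0.11, and at an unadjusted p of 0.05 or less 2 genes were higher and 0 lower. AIMP1, a scaffold of the synthetase complex, had signals of 1305, 1384.5 and 1764 in Dox-injected piglets, against 693, 947.5 and 1092 in PBS-injected piglets, a log2 difference of 0.72 with every Dox signal above. KARS, the lysyl-tRNA synthetase, lay in the same direction, with 2347, 2561 and 3084 in Dox-injected piglets, against 1559, 2152 and 2000.3 in PBS-injected piglets (log2 difference 0.49). SARS, the seryl-tRNA synthetase, had every Dox signal below every PBS signal, with 294, 290.5 and 325 in Dox-injected piglets, against 406.5, 380.4 and 383 in PBS-injected piglets (log2 difference -0.37). Of 22 accessory factors of translation, 9 had a probe set, 5 above and 4 below 0, with a median of 0.09, 2 genes higher and 1 lower at that p. NAP1L1, a histone chaperone with a TOP mRNA, had signals of 474, 687 and 773 in Dox-injected piglets, against 391, 440.1 and 345.5 in PBS-injected piglets, without overlap (log2 difference 0.69). TPT1, which also has a TOP mRNA, had 6746, 6474 and 8554.5 in Dox-injected piglets, against 5015, 5826 and 5855 in PBS-injected piglets, again without overlap (log2 difference 0.38). NCK1, an adaptor that binds eIF2, had every Dox signal below every PBS signal, with 162, 164 and 113 in Dox-injected piglets, against 308, 205 and 206.5 in PBS-injected piglets (log2 difference -0.71).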

How the data were processed

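RNA of 6 piglets was measured on 6 arrays, 3 Dox and 3 PBS, with groups and replicate numbers as the labels give them. The deposited file holds an intensity per probe set and array, a linear MAS5 signal that the authors computed with GCOS 1.4, and their background correction and scaling were kept. A signal of 0, found for 311 probe sets, was raised to 0.1 and log2 was taken. In R 4.3.3, limma 3.58.1 (lmFit, and eBayes with an intensity trend) was fitted to 24000 probe sets as scaled by the authors, unfiltered and without a covariate, and p-values were adjusted over all 24000 by the Benjamini-Hochberg method. Of 124 array controls 123 were left out, and the EEF1A1 control was kept because the rule for the members selects it, although the test had been planned without array controls. Gene names came from the platform annotation, which gives 1 symbol for 10070 of the probe sets tested, several for 198 and none for 13732. The members, gene lists and tests were chosen with earlier results of these data known.

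All 6 signals are given for up to 10 members per direction with the smallest unadjusted p, for the member with the highest signal of each role group and for the 3 genes of each other list that had the smallest unadjusted p, and other genes given in full are marked in the text. An exact two-sided permutation test over the 6 arrays was added for single genes. The fit was tested on simulated data. Each result was recomputed after quantile or cyclic loess normalization, with 16 added to every signal, without dim probe sets, without the eBayes trend, with array weights, with a replicate block, by the methods' t-test, with the probe sets of a gene averaged, and with each array left out in turn. The number of arrays limits the precision. Coordinates and sequences were not used here. Figures were drawn with matplotlib 3.10.9.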

Additional observations from a re-analysis of the deposited data

How the results depend on the processing

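The members higher at an unadjusted p of at most 0.05 numbered 9 as reported, 8 with the replicate block, 2 (EIF3E and EIF3L) in eBayes without a trend, and 4 to 13 when 1 array was left out. Of all probe sets 3.62%, 3.61% and 2.68% were higher in the first 3 of these settings, and 2.01% to 5.54% when 1 array was left out. By the methods' t-test 7 members were higher at that p, beside 2.83% of all probe sets, and 5 of the 7 were among the 9. EIF1, EIF3H, EIF4B and EIF4H were not higher at that p in the t-test. The members lower at that p numbered 0 as reported, 1 with array weights, 1 with the methods' t-test, and 0 to 2 when 1 array was left out. Of all probe sets 5.92%, 10.4% and 4.34% were lower in the first 3 of these settings, and 2.5% to 10.7% when 1 array was left out. Same-numbered Dox and PBS arrays had correlations of deviations of -0.0056, 0.024 and -0.055, and those of unlike number -0.044 to 0.042. With 3 arrays in a group these values cannot show whether the piglets were paired. In limma 0 members were called under every alternative, and the smallest adjusted p of a member over them was 0.160, without Dox replicate 1, where 14 probe sets of the array were called. Of the 43 members 26 kept the sign of their log2 difference in all settings, and 17 changed it in 1 or more. After quantile normalization the log2 difference was -0.038 for EEF1B2, 0.077 for EEF1E1, -0.032 for EIF1B, -0.10 for EIF5A and -0.041 for PABPC1. After cyclic loess normalization it was -0.0092 for EEF1B2, 0.12 for EEF1E1, -0.045 for EIF5A and -0.013 for PABPC1. With array weights it was 0.018 for EEF1E1, -0.11 for EIF4G1 and -0.058 for EIF5A, and with the probe sets of a gene averaged it was 0.35 for EEF1E1, 0.029 for EIF2B1, -0.23 for EIF3D, -0.20 for EIF5A and -0.011 for EIF5B. When 1 array was left out it ranged over -0.40 to 0.44 for EEF1E1, -0.0093 to 0.17 for EIF1B, -0.49 to 0.00086 for EIF2B1, -0.0044 to 0.42 for EIF2D, -0.18 to 0.47 for EIF3B, -0.025 to 0.19 for EIF3I, -0.22 to 0.72 for EIF4A1, -0.82 to 0.28 for EIF4E, -0.095 to 0.30 for EIF4EBP2, -0.13 to 0.15 for EIF4G1, -0.30 to 0.051 for EIF4G2, -0.24 to 0.00065 for EIF4G3, -0.11 to 0.087 for EIF5A and -0.024 to 0.081 for EIF5B. The cause of these changes was not tested.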

Other observations

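Markers of 3 further cell types lay in overlapping ranges. The smooth muscle and pericyte markers (5 of 7 with a probe set, none at 0) summed to a signal of 2180.2 to 3410.3 on the Dox arrays and 2324 to 4050 on the PBS arrays, the red cell markers (4 of 9, none at 0) to 107 to 257 on the Dox arrays and 192 to 695 on the PBS arrays, and the adipocyte markers (4 of 6, none at 0) to 764 to 1103 on the Dox arrays and 859 to 1040.2 on the PBS arrays. PBS replicate 1 had the highest smooth muscle, red cell, endothelial and fibroblast sums of the 6 arrays and the lowest cardiomyocyte sum. It was also the array on which 21 of the 43 translation factors (48.8%) had their lowest signal. The same array was the lowest in 16.2% of all probe sets and in 41.9% of those brighter than the median member. A link between the marker sums and the translation factors was not tested.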
